A study of Schizosaccharomyces pombe
Saccharomyces cerevisiae with 8 samples.

Results

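The nuclear genes of oxidative phosphorylation described here are 38 budding yeast genes, taken from a fixed list of systematic gene identifiers and not by any measured value. All 38 were found among the 6808 genes listed in the deposited tables. By role 9 encode subunits of cytochrome c oxidase, with both forms of subunit V among them, and 14 encode subunits of the ATP synthase. A further 9 encode subunits of the cytochrome bc1 complex, 1 cytochrome c, 4 subunits of succinate dehydrogenase and 1 the internal NADH dehydrogenase. The files give a gene symbol for 16 of them. COX5A, COX5B, RIP1 and NDI1 are named from the files' descriptions, and the others are called by identifier and subunit.

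Oxidative phosphorylation takes place at the inner mitochondrial membrane. Electrons enter from NADH through Ndi1, a single-protein enzyme that stands in budding yeast in place of a proton-pumping complex I, or from succinate through succinate dehydrogenase. They pass by way of ubiquinone to the cytochrome bc1 complex, then by cytochrome c to cytochrome oxidase, which reduces oxygen. The proton gradient built by the bc1 complex and the oxidase drives the ATP synthase, made of a catalytic F1 head, a membrane-bound F0 sector and a stator that joins them. Most subunits are nuclear genes transcribed by RNA polymerase II, while a few core subunits are encoded in mitochondrial DNA and transcribed by a separate polymerase. In budding yeast many of these nuclear genes are known to be held low on glucose and raised on respiratory carbon sources.

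The series asked how RNA levels respond when Sua7 is removed, a general transcription factor known as TFIIB in other eukaryotes. Every library came from 1 strain, GZY364, a MATalpha strain with disruptions of ade2, lys2, leu2, ura3, met15, trp1 and his3, in which Sua7 carries a 3V5-IAA7 degron tag and the plant receptor OsTIR1 is driven by the GPD1 promoter. Cells in rich glucose medium received auxin (3-IAA, 500 µM) or its carrier DMSO for 30 min and then 5 mM 4-thiouracil, a base analog built into new RNA, for 6 min. The 4 groups were newly synthesized RNA (nsRNA, the purified labelled fraction) after auxin, nsRNA after DMSO, total RNA after auxin and total RNA after DMSO, with 2 biological replicates each. DMSO cells carry the same tag and receptor, so loss of Sua7 and an effect of auxin as a chemical cannot be told apart.

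The nsRNA libraries held 1291241 and 1753672 counts after auxin, against 9496247 and 11779971 after DMSO. The total RNA libraries held 7010247 and 7181104 counts after auxin, against 8275038 and 10543351 after DMSO. Changes are reported on the deposited scaling, in which each library is divided by 1 factor, and n = 2 in each group throughout. SUA7 itself had 272 and 327 raw nsRNA counts after auxin, against 1650 and 1935 after DMSO, and 225 and 246 raw total RNA counts after auxin, against 1071 and 1463 after DMSO. The tag acts on the protein, so these counts do not check its loss. In total RNA STE3, expressed by alpha cells, had 183 and 256 raw counts after auxin, against 2337 and 2869 after DMSO, and BAR1, expressed by a cells, had 12 and 11 after auxin, against 8 and 11 after DMSO, as the MATalpha label has it. Cells of S. pombe were added in a fixed proportion before RNA extraction, but how the deposited factors were set is not stated. Fewer cells and less RNA per cell thus cannot be told apart here.

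The 38 genes lie on 14 chromosomes (build sacCer3) and are short. Their coding lengths run between 180 and 1923 bases, with a median of 451 bases beside 1185 bases over all genes tested in nsRNA. Their transcripts were abundant in DMSO cells. In DMSO total RNA the median member stood at 1722 normalized counts per kb of transcript, beside 327.7 over all tested genes, and in DMSO nsRNA at 2569 beside 968.6. Total RNA levels per kb spread over an 81.1-fold range among the members, from CYT1 (cytochrome c1) at 67.0 to YDR377W (F0 subunit f) at 5437. The range in nsRNA was 11.6-fold, from CYT1 at 539.4 to YJR121W (F1 beta) at 6246. Raw counts were lower after auxin, with a median over members of 80.5 in nsRNA and 179.25 in total RNA, beside 745 and 641 after DMSO. The smallest were 14 counts in nsRNA and 4 in total RNA, both after auxin.

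The first comparison asked how newly made RNA of these genes changed after auxin. All 38 were lower in nsRNA after auxin than after DMSO (edgeR quasi-likelihood test, Benjamini-Hochberg adjusted p under 0.05). On this scaling 97.6% of all tested genes were lower and 1.31% higher, so the count by itself says nothing about the members. Rescaled by TMM (trimmed mean of M values), which sets the typical gene near no change, 16 members were lower and 1 higher. The shares of all tested genes by TMM were 29.5% and 27.4%. The median member fell by 4.28 on the log2 scale, leaving 5.16% of the DMSO level, beside −4.08 and 5.93% left over all genes. In each member both auxin libraries were below both DMSO libraries, as they were for 97.8% of tested genes. The members ran from −5.37 in CYC1 to −3.43 in COX5B, and 11 of 38 stood above the median of all genes. Below the lower quartile of all genes stood 10 members, and above the upper quartile 1, COX5B.

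The second comparison asked the same of total RNA, in which RNA made before the treatment is also counted. All 38 were again lower after auxin by the same test, against 90.3% of all tested genes lower and 1.44% higher. By TMM 10 members were lower and 15 higher, against 42.0% and 33.4% of all tested genes. In each member both auxin libraries were below both DMSO libraries, as for 93.9% of tested genes. The median log2 change was −2.01 over the members, leaving 24.9% of the DMSO level, beside −2.34 and 19.8% left over all genes. The spread among members was wide, from −4.07 in NDI1 to −0.71 in YBL099W (F1 alpha). In total RNA 25 of 38 members stood above the median of all genes, 9 above the upper quartile and 4 below the lower quartile. More than 50% of the DMSO level was left for 5 members and less than 10% for 3. Leaving out 1 library at a time left between 33 and 38 members lower, and the 5 whose call was lost in at least 1 such fit, YGL191W, YBL099W, YJR121W, YBR039W and YDL004W, were those with over 50% left.

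**Figure D1:**
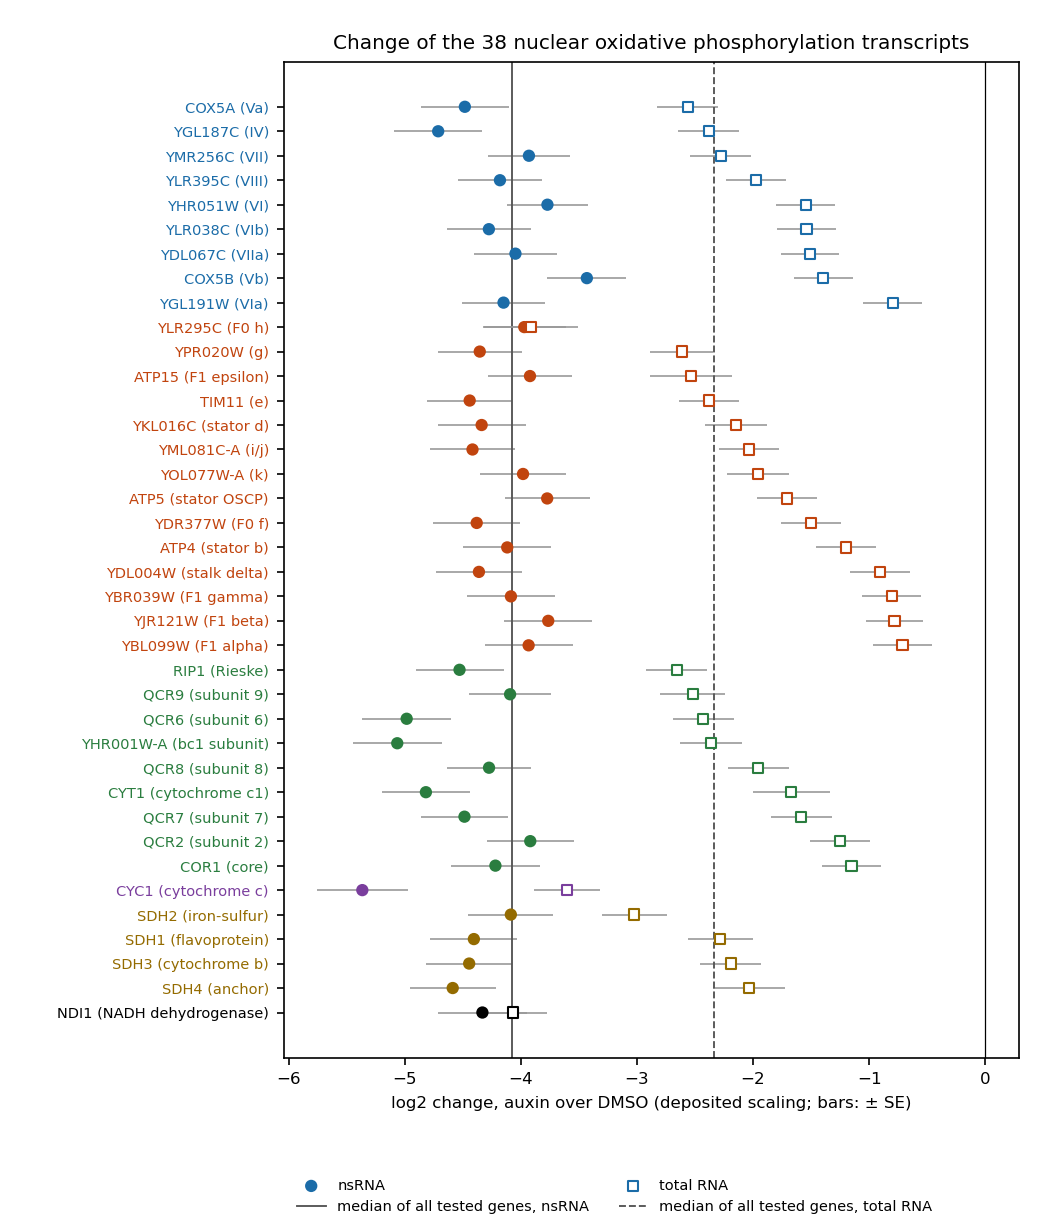
Log2 change after auxin over DMSO on the deposited scaling, 1 row for each of the 38 genes coloured by complex, with filled circles for nsRNA, open squares for total RNA, bars for ± SE, and vertical lines for the median of all tested genes (solid, nsRNA; dashed, total RNA). All points lie below 0 on this scaling, while by TMM 1 member was higher in nsRNA and 15 in total RNA, beside 27.4% and 33.4% of all tested genes. On the deposited scaling nsRNA changes cluster between −5.37 and −3.43, whereas total RNA changes spread from −4.07 to −0.71.

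The third comparison tested the difference of the 2 changes, nsRNA minus total RNA, in one fit over the 8 libraries. The fall in nsRNA was larger than that in total RNA for 36 of 38 members, against 77.6% of all tested genes lower and 0.0337% higher. The other members, YLR295C and NDI1, did not pass. By TMM 19 members were lower and 3 higher, against 22.5% and 29.3% of all tested genes. The median difference was −2.29 log2 units, beside −1.65 over all genes. Of the 38, 17 stood below the lower quartile of all genes and 5 above their median.

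Cytochrome oxidase is the terminal oxidase of the chain, and its nuclear subunits surround a core encoded in mitochondrial DNA. The members hold 9 genes for these subunits, with both forms of subunit V among them. All 9 were lower after auxin in both kinds of RNA on the deposited scaling, as were 97.6% of all tested genes in nsRNA and 90.3% in total RNA. By TMM nsRNA had 2 lower and 1 higher, beside 29.5% and 27.4% of all tested genes. Total RNA had 2 lower and 5 higher by TMM, beside 42.0% and 33.4%. The median of the 9 oxidase genes fell by 4.15 in nsRNA and by 1.55 in total RNA, and 7 of 9 stood above the median of all genes in total RNA. The most abundant oxidase transcript per kb in nsRNA was YDL067C, subunit VIIa. It had 184.9 and 341.7 nsRNA counts per kb after auxin, against 3978 and 4753 after DMSO, an order of libraries seen in 97.8% of genes tested in nsRNA. In total RNA YDL067C had 1027 and 973.8 per kb after auxin, against 2527 and 3161 after DMSO. The auxin libraries thus lay far below DMSO in nsRNA (−4.05 ± 0.36, log2 change ± SE, the SE being the size of the change over the square root of its F statistic) and less far in total RNA (−1.51 ± 0.25). YLR395C, subunit VIII, was highest in DMSO total RNA, with 684.8 and 828.5 per kb after auxin, against 2719 and 3231 after DMSO (−1.98 ± 0.26).

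YGL191W, subunit VIa, is a regulatory subunit not needed for oxidase activity, and it kept the most of its total RNA among the oxidase genes. It had 1587 and 1582 total RNA counts per kb after auxin, against 2554 and 2948 after DMSO, which leaves 57.6% (−0.80 ± 0.26, edgeR adjusted p = 0.00207). Its nsRNA counts per kb were 128.0 and 163.0 after auxin, against 2330 and 2849 after DMSO, a fall to 5.63%. The difference of the 2 changes, −3.36 ± 0.39, ranked low among all genes, with 8.43% of tested genes lower still. Without DMSO replicate 2 the total RNA adjusted p of YGL191W was 0.09, and without auxin replicate 1 or 2 it was 0.0512 or 0.0509. YHR051W, subunit VI, had 121.0 and 188.6 nsRNA counts per kb after auxin, against 2006 and 2231 after DMSO. Its change of −3.77 ± 0.35 was among the 3 smallest falls in nsRNA. The other oxidase subunits, YGL187C (IV), YMR256C (VII) and YLR038C (VIb), changed by −4.71, −3.93 and −4.28 in nsRNA and by −2.38, −2.28 and −1.54 in total RNA.

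Subunit V comes in 2 forms encoded by COX5A (YNL052W, chromosome XIV, 531725 to 532186) and COX5B (YIL111W, chromosome IX, 155311 to 155765). Form Va is known as the aerobic form and Vb as the hypoxic one. COX5A had 132.1 and 169.0 nsRNA counts per kb after auxin, against 3061 and 3688 after DMSO, and 212.3 and 281.9 in total RNA after auxin, against 1297 and 1619 after DMSO. COX5B had 76.21 and 116.9 nsRNA counts per kb after auxin, against 933.0 and 1157 after DMSO, and 679.1 and 703.1 in total RNA after auxin, against 1661 and 1974 after DMSO. COX5B thus fell least of all members in nsRNA (−3.43 ± 0.34), and by TMM it was the 1 member higher (0.55, adjusted p = 0.00635), whereas COX5A fell by 4.48 in nsRNA and by 2.56 in total RNA. In total RNA COX5B changed by −1.395, with 38.02% left, while 16.9% of COX5A was left.

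The balance of the COX5A and COX5B transcripts does not depend on the scaling, since both are measured in the same library. In nsRNA the ratio of COX5A to COX5B per kb was 1.73 and 1.45 after auxin, against 3.28 and 3.19 after DMSO. In total RNA it was 0.313 and 0.401 after auxin, against 0.781 and 0.820 after DMSO. Both auxin values were below both DMSO values in each kind of RNA, by 1.03 log2 units in nsRNA and 1.18 in total RNA. An exact two-sided permutation test gave p = 0.333 in each, the smallest that 2 against 2 libraries allow. By these counts per kb COX5A was the more abundant form in nsRNA and COX5B in total RNA, in all 4 libraries of each kind. How reads of closely related genes were assigned is not stated, so this order between the 2 forms is uncertain.

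**Figure D2:**
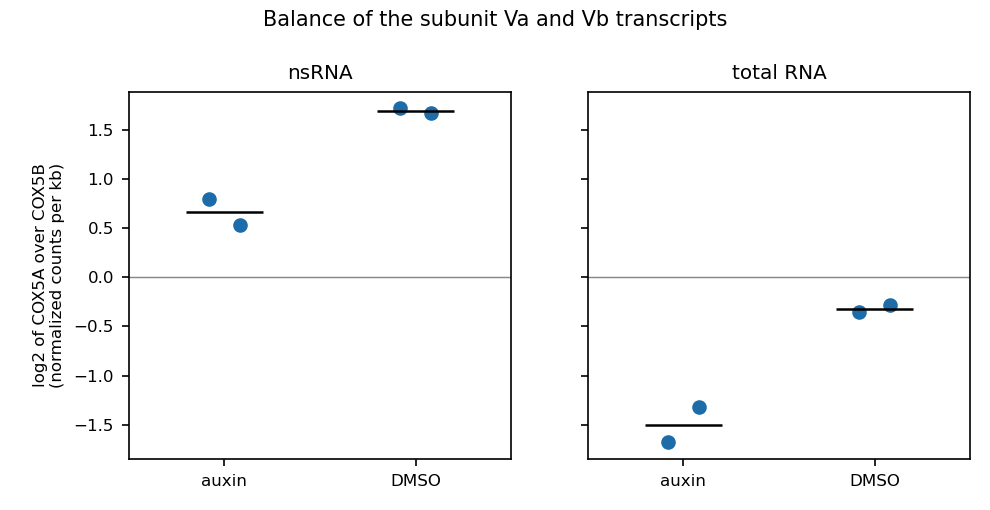
Log2 of the COX5A over the COX5B level per kb in each library (points), with the mean of each group of 2 as a line, auxin left of DMSO, nsRNA in the left panel and total RNA in the right one. In nsRNA the means were 0.66 after auxin and 1.69 after DMSO, and in total RNA −1.50 after auxin and −0.32 after DMSO.

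The ATP synthase makes ATP from the proton gradient. All 14 nuclear subunits were lower after auxin on the deposited scaling in both kinds of RNA, as were 97.6% of all tested genes in nsRNA and 90.3% in total RNA. By TMM 4 were lower in nsRNA, beside 29.5% of all tested genes. In total RNA 3 were lower and 7 higher by TMM, beside 42.0% and 33.4%. The median of the 14 fell by 4.10 in nsRNA, close to that of all genes, and by 1.83 in total RNA. In nsRNA the 14 lay close together, between −4.44 (TIM11, subunit e) and −3.77 (YJR121W, F1 beta). In total RNA they spread between −3.91 (YLR295C) and −0.71 (YBL099W), and 5 of 14 stood above the upper quartile of all genes.

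The alpha, beta, gamma and delta subunits of the F1 head and central stalk kept the largest shares of total RNA in the complex. YBL099W, the F1 alpha subunit (chromosome II, 37053 to 38690), had 631.6 and 706.9 total RNA counts per kb after auxin, against 1002 and 1191 after DMSO, which leaves 61.0% (−0.71 ± 0.26, edgeR adjusted p = 0.00599). YJR121W, the catalytic F1 beta subunit (chromosome X, 647607 to 649142), had 2032 and 2374 per kb after auxin, against 3629 and 3940 after DMSO, which leaves 58.2%. YBR039W, the F1 gamma subunit of the rotating stalk, had 1697 and 2095 per kb after auxin, against 3001 and 3620 after DMSO, which leaves 57.3%. In each of these genes both auxin libraries lay below both DMSO libraries, as for 93.9% of genes tested in total RNA. YDL004W, the delta subunit of the stalk, had 1421 and 1628 per kb after auxin, against 2788 and 2929 after DMSO, which leaves 53.3% (−0.91 ± 0.26). The remaining F1 subunit, epsilon (ATP15), did not share this position. It had 68.89 and 60.81 per kb after auxin, against 354.1 and 406.3 after DMSO, with 17.2% left (−2.54 ± 0.35), from 15 and 12 raw counts after auxin and 59 and 73 after DMSO.

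In nsRNA the changes of the same genes lay around the median of all genes, −4.08. YBL099W had 177.0 and 242.1 nsRNA counts per kb after auxin, against 3109 and 3301 after DMSO (−3.93 ± 0.38). YJR121W had 358.5 and 560.1 per kb after auxin, against 6062 and 6430 after DMSO (−3.77 ± 0.38). YBR039W had 148.9 and 215.6 per kb after auxin, against 2955 and 3243 after DMSO (−4.09 ± 0.38). Both auxin libraries were below both DMSO libraries in each of the 3 genes, as for 97.8% of genes tested in nsRNA. YDL004W had 122.0 and 140.2 nsRNA counts per kb after auxin, against 2587 and 2818 after DMSO (−4.36 ± 0.37). The difference of the 2 changes was −3.46 in YDL004W, the lowest of all members, −3.28 in YBR039W, −3.22 in YBL099W and −2.98 in YJR121W. By TMM these differences stayed below 0, at −1.59, −1.42, −1.37 and −1.13. The calls in total RNA were weaker: without DMSO replicate 2 the adjusted p was 0.168 for YBL099W, 0.0797 for YJR121W and 0.114 for YBR039W, without auxin replicate 1 it was 0.137, 0.122 and 0.131, and 0.0527 for YDL004W, and without auxin replicate 2 it was 0.0606 for YBL099W.

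YLR295C, subunit h of the F0 sector (chromosome XII, 721999 to 722373), stood at the other end. It had 18.52 and 10.22 total RNA counts per kb after auxin, against 214.8 and 232.8 after DMSO, which leaves 6.64% (−3.91 ± 0.40). Its raw total RNA counts were 8 and 4 after auxin, against 71 and 83 after DMSO, so the size of this fall rests on few counts. In nsRNA YLR295C had 55.48 and 70.02 per kb after auxin, against 948.7 and 1030 after DMSO (−3.97 ± 0.36). The difference of its 2 changes was −0.07 (edgeR adjusted p = 0.96), and 97.7% of tested genes had a lower difference. Without auxin replicate 1 of nsRNA or of total RNA the difference was 0.10 or 0.42, and by TMM it was 1.81 (adjusted p = 0.00142). YLR295C overlaps the gene YLR294C by 32 bases, and the sources used here do not say whether counting used strand. No other member overlaps a listed gene.

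YDR377W, F0 subunit f, was the most abundant member per kb in DMSO total RNA. It had 1708 and 2141 per kb after auxin, against 5268 and 5606 after DMSO (−1.50 ± 0.26), and its nsRNA counts per kb were 249.3 and 289.0 after auxin, against 5149 and 6091 after DMSO (−4.38 ± 0.38). The stator subunits ATP4 (b), ATP5 (OSCP) and YKL016C (d) changed by −4.12, −3.77 and −4.34 in nsRNA and by −1.20, −1.71 and −2.15 in total RNA. The small membrane subunits TIM11 (e), YPR020W (g), YML081C-A (i/j) and YOL077W-A (k) changed by −4.44, −4.36, −4.42 and −3.98 in nsRNA and by −2.38, −2.62, −2.03 and −1.96 in total RNA. Among the 14, ATP4 followed the alpha, beta, gamma and delta subunits with 43.6% of its total RNA left.

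**Figure D3:**
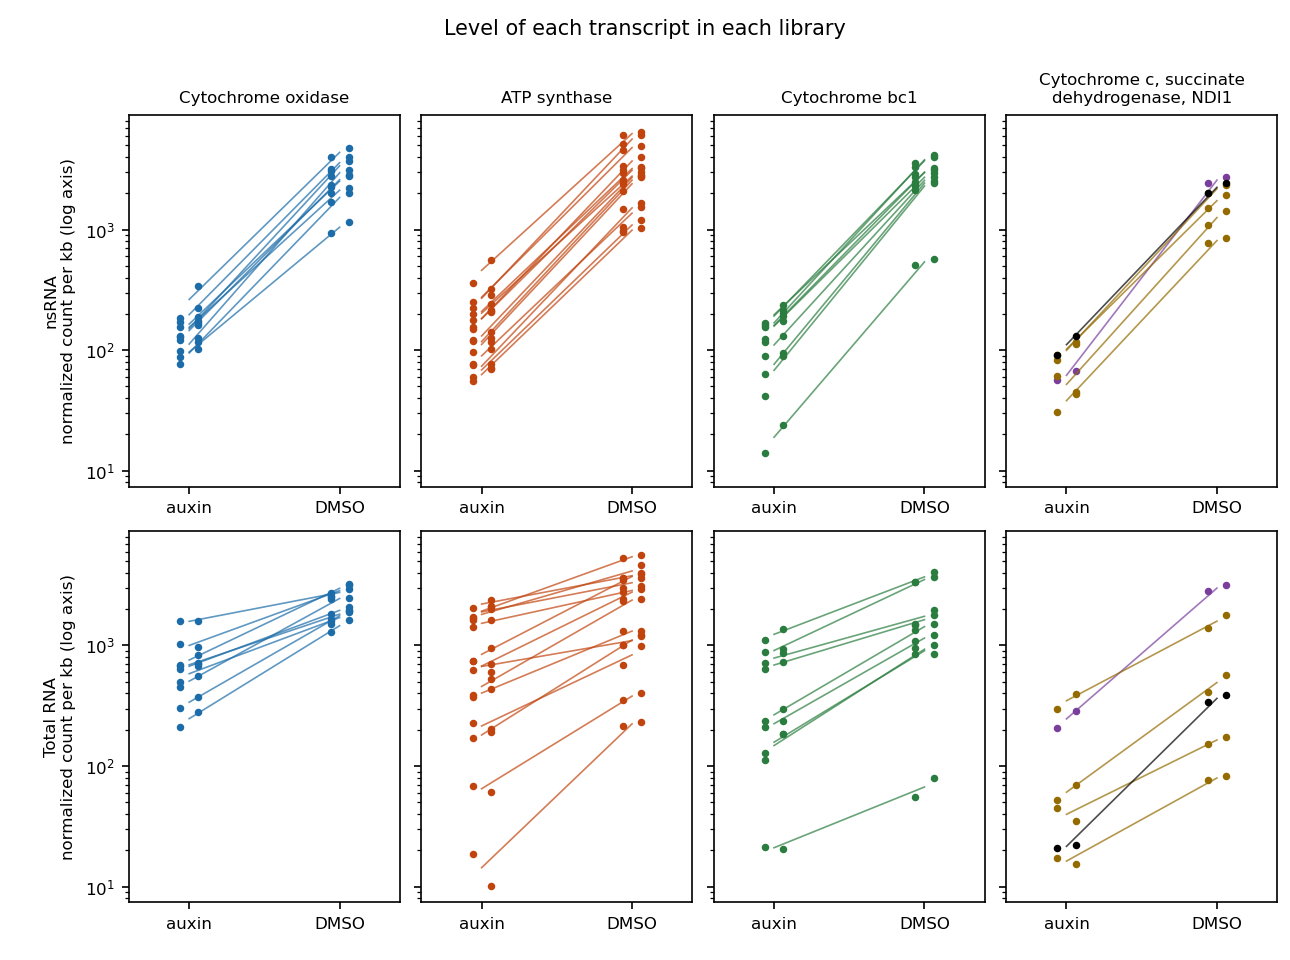
Normalized counts per kb of transcript (log axis) of each of the 38 genes in each library, nsRNA above and total RNA below, auxin left of DMSO, 1 panel for each complex; points are the 2 libraries of a group and lines join the group means. In all panels the auxin points of a gene lie below its DMSO points on this scaling, as for 97.8% of genes tested in nsRNA and 93.9% in total RNA. By TMM 15 members were higher in total RNA, beside 33.4% of all tested genes. Most lines are steeper in nsRNA, and in total RNA the flattest lines belong to the alpha, beta, gamma and delta subunits of F1 and to YGL191W.

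The cytochrome bc1 complex passes electrons from ubiquinol to cytochrome c. All 9 nuclear subunits were lower after auxin on the deposited scaling, as were 97.6% of all tested genes in nsRNA and 90.3% in total RNA. By TMM 5 were lower in nsRNA, beside 29.5% of all tested genes. In total RNA 2 were lower and 3 higher by TMM, beside 42.0% and 33.4%. The nsRNA median of the 9 bc1 genes fell by 4.49, with 5 of 9 below the lower quartile of all genes, and their total RNA median fell by 1.96. QCR7, subunit 7, was the most abundant per kb in both kinds of RNA. It had 162.5 and 174.5 nsRNA counts per kb after auxin, against 3585 and 3989 after DMSO (−4.49 ± 0.38), and 1114 and 1357 in total RNA after auxin, against 3368 and 4037 after DMSO (−1.58 ± 0.26). YHR001W-A, a subunit of the complex, and QCR6, subunit 6, had the lowest nsRNA changes after CYC1. YHR001W-A had 41.49 and 94.50 nsRNA counts per kb after auxin, from 14 and 32 raw counts, against 2140 and 2451 after DMSO (−5.07 ± 0.38). QCR6 had 64.04 and 88.71 per kb after auxin, against 2310 and 2546 after DMSO (−4.99 ± 0.38). Both stood near the median of all genes in total RNA, at −2.36 and −2.43.

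The large core subunits COR1 and QCR2 kept 45.04% and 42.08% of their total RNA, with changes of −1.15 and −1.25, and changed by −4.22 and −3.92 in nsRNA. RIP1, the Rieske iron-sulfur protein, changed by −4.53 in nsRNA and by −2.66 in total RNA, where 15.8% was left, the least in the complex. CYT1, cytochrome c1, changed by −4.82 in nsRNA and by −1.67 in total RNA, from 23 and 20 raw total RNA counts after auxin, against 45 and 70 after DMSO. QCR8 and QCR9 changed by −4.28 and −4.09 in nsRNA and by −1.96 and −2.52 in total RNA. In the difference of the 2 changes, 6 of 9 bc1 genes stood below the lower quartile of all genes.

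CYC1 (YJR048W, chromosome X, 526335 to 526664) encodes iso-1-cytochrome c, the main soluble electron carrier between the bc1 complex and the oxidase. It had 56.74 and 67.01 nsRNA counts per kb after auxin, against 2433 and 2706 after DMSO, which leaves 2.42% (−5.37 ± 0.39, edgeR adjusted p = 4.05e-40). This was the deepest fall among the members, and 2.07% of tested genes had a lower nsRNA change. It rests on 27 and 32 raw nsRNA counts after auxin, against 537 and 643 after DMSO. YHR001W-A was next at −5.07 ± 0.38, within the SE, so the order of these 2 is uncertain. In total RNA CYC1 had 205.2 and 287.3 per kb after auxin, against 2805 and 3168 after DMSO, which leaves 8.23% (−3.60 ± 0.28). Both auxin libraries of CYC1 were below both DMSO libraries, as for 97.8% of genes tested in nsRNA and 93.9% in total RNA. By TMM CYC1 stayed lower in both, at −1.38 (adjusted p = 7.73e-06) in nsRNA and −1.49 (adjusted p = 2.63e-11) in total RNA. The difference of the 2 changes was −1.77, near the median of all genes, and 0.10 by TMM (adjusted p = 0.746).

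Succinate dehydrogenase links the citric acid cycle to the respiratory chain. Its 4 subunits were lower after auxin in both kinds of RNA on the deposited scaling, as were 97.6% of all tested genes in nsRNA and 90.3% in total RNA. By TMM 3 were lower in nsRNA and 1 in total RNA, beside 29.5% and 42.0% of all tested genes. The median change of the 4 was −4.43 in nsRNA and −2.24 in total RNA. SDH3, the cytochrome b subunit, was the most abundant per kb. It had 82.48 and 116.9 nsRNA counts per kb after auxin, against 2023 and 2333 after DMSO (−4.45 ± 0.37), and 298.0 and 397.9 in total RNA after auxin, against 1399 and 1779 after DMSO (−2.19 ± 0.26). SDH2, the iron-sulfur subunit, had the lowest total RNA share of the 4. It had 52.01 and 69.35 total RNA counts per kb after auxin, against 415.0 and 569.9 after DMSO, which leaves 12.3% (−3.02 ± 0.28), and 90.91 and 113.0 nsRNA counts per kb after auxin, against 1521 and 1951 after DMSO (−4.09 ± 0.37). The difference of its 2 changes was −1.07 ± 0.41 (edgeR adjusted p = 0.0129), and the call was lost without DMSO nsRNA replicate 2 (0.0893), DMSO total RNA replicate 1 (0.11) or auxin total RNA replicate 2 (0.121). By TMM the difference of SDH2 was 0.81 (adjusted p = 0.00142). SDH1, the flavoprotein, and SDH4, a membrane anchor, changed by −4.41 and −4.59 in nsRNA and by −2.28 and −2.04 in total RNA.

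NDI1 (YML120C, chromosome XIII, 28266 to 29807) encodes the internal NADH dehydrogenase. It had 20.83 and 22.36 total RNA counts per kb after auxin, against 339.9 and 388.1 after DMSO, which leaves 5.95% (−4.07 ± 0.30, edgeR adjusted p = 3.6e-40). This was the deepest fall among the members in total RNA, and 2.50% of tested genes had a lower change. In nsRNA NDI1 had 90.40 and 131.7 per kb after auxin, against 2027 and 2452 after DMSO (−4.33 ± 0.38). Both auxin libraries of NDI1 were below both DMSO libraries, as for 97.8% of genes tested in nsRNA and 93.9% in total RNA. The 2 changes differed by −0.26 ± 0.43 (adjusted p = 0.569), and 96.6% of tested genes had a lower difference. By TMM the difference was 1.60 (adjusted p = 2.57e-08), with total RNA at −1.95 and nsRNA at −0.34.

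**Figure D4:**
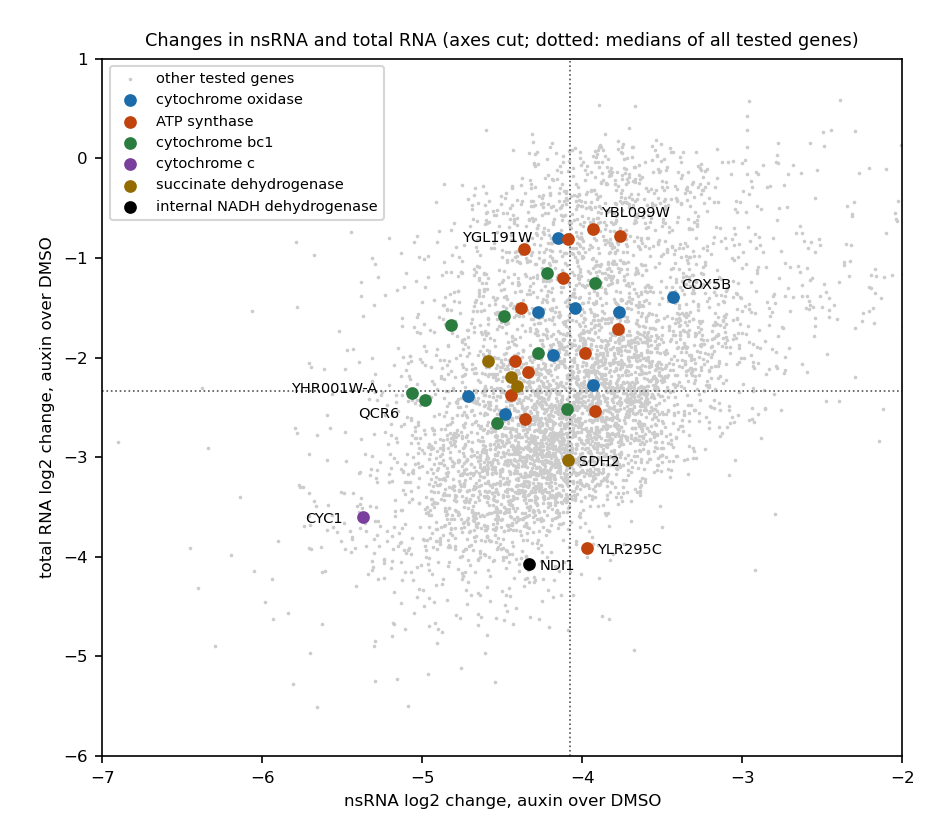
Total RNA log2 change against nsRNA log2 change, auxin over DMSO on the deposited scaling, for the members (large points coloured by complex) and the other genes tested in both kinds of RNA (small grey points), with dotted lines at the medians of all tested genes; 147 of 5433 genes lie outside the axes. F1 alpha, beta, gamma and delta (YBL099W, YJR121W, YBR039W and YDL004W) and YGL191W sit high (total RNA −0.91 to −0.71), NDI1 and YLR295C low (−4.07 and −3.91), and CYC1 far left (−5.37). Against the typical gene (TMM) 15 members were higher in total RNA, beside 33.4% of all tested genes.

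Because nearly all genes fell on the deposited scaling, the members were also read against the typical gene. TMM moved the median of all genes by 4.01 log2 units in nsRNA and by 2.15 in total RNA. Relative to it, 16 members were lower and 1 higher in nsRNA, where 29.5% of all tested genes were lower and 27.4% higher. In total RNA 10 members were lower and 15 higher, where 42.0% of all genes were lower and 33.4% higher. The 5 highest by TMM in total RNA were YBL099W (1.41), YJR121W (1.34), YGL191W (1.33), YBR039W (1.32) and YDL004W (1.21), and the 3 lowest were NDI1 (−1.95), YLR295C (−1.80) and CYC1 (−1.49). In the difference, 19 members were lower and 3 higher, where 22.5% of all genes were lower and 29.3% higher; the 3 were YLR295C, NDI1 and SDH2. DESeq2 with its own factors called 7 members lower and 2 higher in nsRNA, against 15.9% and 23.8% of all genes. With the same tool 4 were lower and 17 higher in total RNA, against 25.0% and 33.4%, and 20 lower and 3 higher in the difference, against 23.2% and 20.8%.

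The members also differed in their ratio of nsRNA to total RNA in DMSO cells. The nsRNA and total RNA tables were scaled separately, so the ratio of nsRNA to total RNA is given relative to the median gene. The members are short, with a median length of 451 bases beside 1185 over all genes tested in nsRNA. The part of transcript length in this ratio was not tested. The median member stood 1.10 log2 units below the median gene, and 7 of 38 members stood above it. Those 7 were SDH1 (1.71), CYT1 (1.37), SDH4 (1.29), NDI1 (0.98), YLR295C (0.50), ATP15 (0.21) and SDH2 (0.18). COX5B was lowest at −2.44, followed by CYC1 at −1.86 and YML081C-A at −1.85. All 9 oxidase genes lay below the median gene, and 2 of 14 ATP synthase genes lay above it. This ratio shares the DMSO libraries with the changes above, so they are set side by side only. NDI1 and YLR295C, with the least total RNA left, had ratios above the median gene, and CYC1, with 8.23% left, had one of the lowest. Of the 5 members with over 50% left, YBL099W stood near the median gene at −0.09. YJR121W, YGL191W, YBR039W and YDL004W stood below it at −0.92, −1.73, −1.73 and −1.72. Whether the ratio has a part in the share left was not tested.

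**Figure D5:**
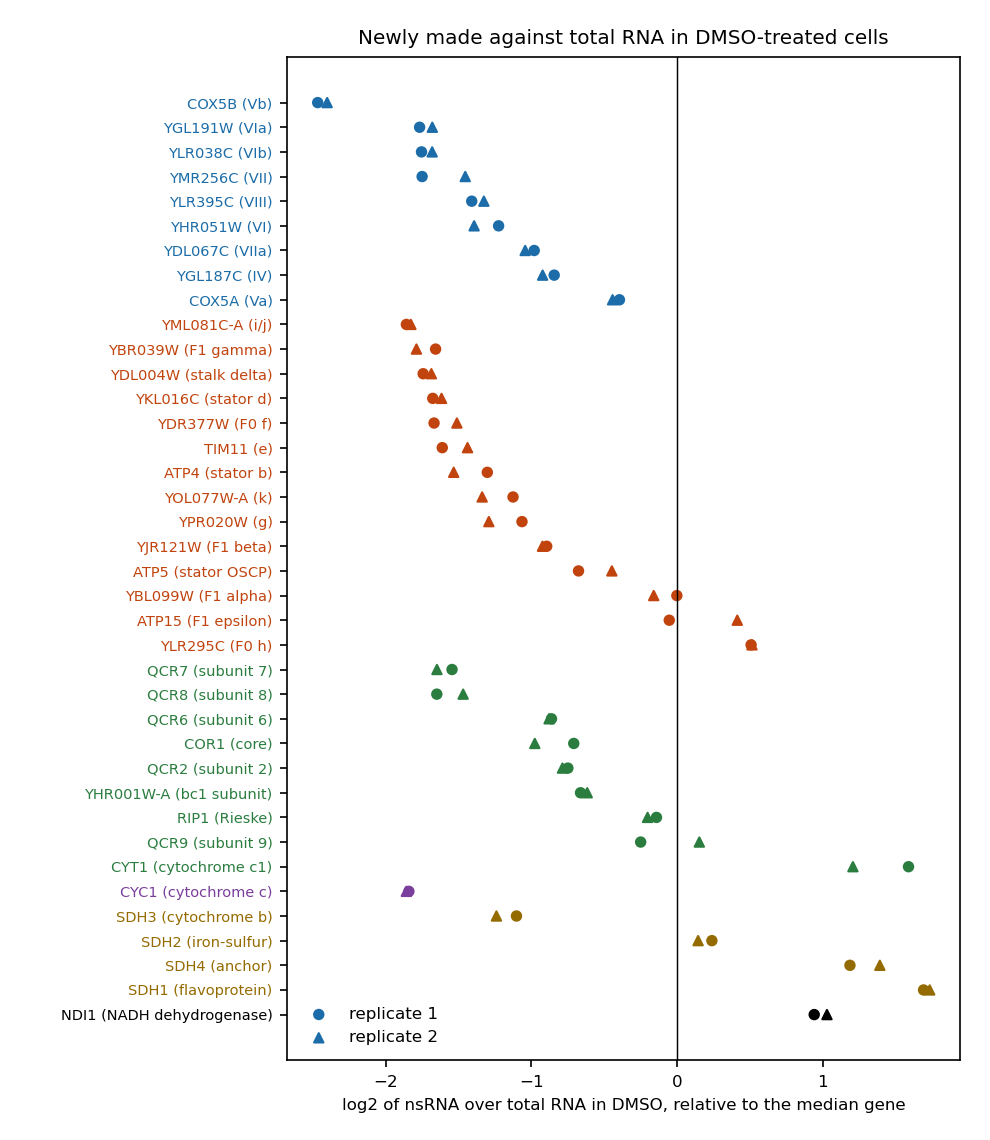
Log2 of the nsRNA over the total RNA level in DMSO cells, relative to the median gene (vertical line at 0), for each of the 38 genes coloured by complex, with a circle for replicate 1 and a triangle for replicate 2. Most members lie left of 0, with COX5B lowest at −2.44 and SDH1 highest at 1.71 (values from the mean of both replicates).

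Other genes of the pathway were read from lists of known roles. Of the 7 mitochondrially encoded subunits, made by a different RNA polymerase, 6 were tested on the deposited scaling in nsRNA and 7 in total RNA, with changes of −0.65 to −0.14 and 0.05 to 0.43. By TMM all 7 were tested and higher in both kinds of RNA, beside 27.4% of all tested genes in nsRNA and 33.4% in total RNA. On the deposited scaling 97.6% of all tested genes were lower in nsRNA. Of the 6 subunits tested in nsRNA, 1 fell, OLI1 (ATP synthase subunit c, −0.65 ± 0.32, edgeR adjusted p = 0.0397), and the median of the 6 was −0.33. COX1, COX2 and COX3 (core oxidase subunits), COB (cytochrome b) and ATP6 (F0 subunit a) stood at −0.20, −0.45, −0.54, −0.20 and −0.14 in nsRNA and did not pass by edgeR, while DESeq2 with the deposited factors called 2 of the 6 lower. In total RNA the median of the 7 was 0.32, and by edgeR 0 of 7 passed, also at an unadjusted p under 0.05, while DESeq2 with the deposited factors called 2 higher. Total RNA of COX1 was 4722 and 5191 per kb after auxin, against 3396 and 4199 after DMSO (0.38 ± 0.24, adjusted p = 0.118). In the same order COX2, COX3, COB, ATP6, ATP8 and OLI1 stood at 0.17, 0.35, 0.32, 0.43, 0.12 and 0.05 in total RNA. ATP8 had 5 and 22 raw nsRNA counts after auxin, against 0 and 1 after DMSO. These were too few to be tested in nsRNA on the deposited scaling. In the fit over all libraries its nsRNA change minus its total RNA change was 3.43 (edgeR adjusted p = 0.00317). This value rests on those few counts. In the same difference COX3 was lower (−0.895, edgeR adjusted p = 0.0205), 5 of the 7 did not pass, and the median of the 7 was −0.59. Over all tested genes 77.6% were lower and 0.0337% higher. DESeq2 with the deposited factors called 4 of the 7, 1 of them higher. By TMM all 7 were higher in this difference, beside 29.3% of all tested genes.

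The nuclear assembly and translation factors of these complexes, 43 in number, were all lower after auxin in both kinds of RNA on the deposited scaling, while by TMM nsRNA had 17 lower and 10 higher and total RNA 34 lower and 2 higher. Their median change was −4.35 in nsRNA, near that of the structural subunits, and −3.28 in total RNA, beside −2.01 for the structural subunits and −2.34 for all genes. In total RNA 6 of 43 stood above the median of all genes, beside 25 of 38 structural subunits. Over all tested genes 97.6% were lower in nsRNA and 90.3% in total RNA on the deposited scaling, while by TMM nsRNA had 29.5% lower and 27.4% higher and total RNA 42.0% lower and 33.4% higher; 42 of the 43 factors were tested by TMM in total RNA. The nsRNA changes ran from −5.30 in YGR174C, a factor for assembly of the bc1 complex, to −2.93 in YMR257C, a translational activator of the COX2 mRNA. In total RNA they ran from −4.79 in CBP6, needed for translation of the COB mRNA, to −1.66 in YER153C, an activator for the COX3 mRNA. The factors were also less abundant, with a median of 278.2 per kb in DMSO total RNA, beside 1722 for the structural subunits. Whether abundance has a part in this contrast was not tested.

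The regulators of respiratory genes fell as well on the deposited scaling, 5 of 5 in both kinds of RNA, while by TMM 1 was lower in nsRNA and 4 in total RNA. Over all genes, the shares to set beside these regulators and the ATP synthase inhibitors were 97.6% and 90.3% lower on the deposited scaling and 29.5% and 42.0% by TMM. HAP1, a heme-responsive activator, changed by −3.94 in nsRNA and by −2.07 in total RNA, the highest of the 5 in each. Of the CCAAT-binding complex, HAP2 changed by −4.16 in nsRNA and by −4.10 in total RNA, and in the same order YBL021C by −4.47 and −4.54, YKL109W, which provides its activation function, by −3.94 and −3.02, and YOR358W by −4.54 and −3.50. HAP2 had 1 and 5 raw total RNA counts after auxin, against 34 and 56 after DMSO. The 3 genes for inhibitors of the ATP synthase and a modulator of their action, STF2, fell in both kinds of RNA on the deposited scaling. By TMM 1 of these 3 genes was lower in nsRNA. In total RNA 1 was lower and 1 higher by TMM, where 33.4% of all tested genes were higher. INH1 changed by −4.24 in nsRNA and by −1.21 in total RNA, and in the same order STF1 by −4.75 and −1.84, and STF2 by −5.13 and −4.05.

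Among the paralogs and alternative enzymes, 4 of 6 were tested in nsRNA and fell, and 2 of 3 tested in total RNA fell, on the deposited scaling. The shares of all tested genes lower were 97.6% and 90.3%. By TMM 1 of 3 was lower in nsRNA, beside 29.5% of all tested genes, and 1 of 3 higher in total RNA, beside 33.4%. CYC7, the hypoxic form of cytochrome c, had 1 and 7 raw nsRNA counts after auxin, against 48 and 71 after DMSO (−4.89 ± 0.48), and 0 and 0 in total RNA after auxin, against 11 and 6 after DMSO, where it was too low to test. NDE1, an external NADH dehydrogenase, changed by −4.66 in nsRNA and by −2.32 in total RNA, beside −4.33 and −4.07 in NDI1. YJL045W, a minor form of the succinate dehydrogenase flavoprotein, was the highest at −2.44 ± 0.61 in nsRNA and 0.29 in total RNA (edgeR adjusted p = 0.625). Both values rest on few counts. In nsRNA it had 2 and 5 raw counts after auxin, against 10 and 9 after DMSO, and was not tested by TMM. In total RNA it had 12 and 10 raw counts after auxin, against 5 and 10 after DMSO. NDE2 and SHH3 were too low to test in either kind of RNA.

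In the authors' deposited table all 38 members were lower after auxin at an adjusted p under 0.05 in both kinds of RNA. Of the genes with an adjusted p there, 84.3% of 6741 were lower in nsRNA and 75.9% of 6522 in total RNA. The median log2 change in the authors' deposited table was −4.24 in nsRNA and −1.97 in total RNA. Values there differed from the edgeR values by at most 0.05 in nsRNA and 0.18 in total RNA.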

How the data were processed

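The 4 groups of 2 libraries were taken from the sample labels. Per the labels' protocols, 3 parts of S. pombe cells joined each part of S. cerevisiae before RNA extraction, and a stranded kit with ribosomal RNA depletion took in 800 ng (total RNA) or 300 ng (nsRNA). Per the submitters' processing notes, the build was sacCer3 and the read converter was bcl2fastq 2.17.1.14; for the aligner, the counter and its use of strand, nothing is stated in the sources used here, so overlapping, antisense and closely related genes are uncertain. Raw counts per gene were deposited, per the file headers. The normalized signal deposited by the authors divides every raw count of a library by the same factor, and the signal per kb divides it by transcript length as well. The factors were 1.44 and 1.45 (nsRNA, auxin), 0.669 and 0.720 (nsRNA, DMSO), 1.15 and 1.04 (total, auxin) and 0.881 and 0.951 (total, DMSO). Their origin is likewise not stated, and each absolute change rests on them. Per the file headers, log2 fold changes and p-values of the authors were deposited as well; they were used only where named.

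Here, raw counts were tested with the quasi-likelihood test of edgeR 4.0.16 (R 4.3.3) with library sizes set from those factors, filterByExpr as the filter (minimum count 10) and Benjamini-Hochberg adjustment over all tested genes (5800 in nsRNA, 5479 in total RNA, 5930 for the difference) at 0.05. The SE is the absolute log2 change over the square root of F, not a fitted standard error. Alternatives were TMM, DESeq2 1.42.0, other filters, a replicate block, 1 fit of all libraries and each library left out. On simulated data with 200 changed genes at a dispersion of 0.03, changes of −1 were recovered in 78% of cases for nsRNA (5732 genes), 58% for total RNA (5415 genes) and 36% for the difference (5803 genes). Simulated library sizes followed the deposited factors, which were larger after auxin, and no fall over all genes was simulated. The measured auxin nsRNA libraries were shallower than the DMSO ones, so these rates do not give the recovery in these data.

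Replicate libraries correlated at 0.982 to 0.996 (Pearson, log2 counts) and differed by more than sampling noise (chi-square per degree of freedom 2.98 to 15.03). Every sample with the same number was checked for pairing: deviations of auxin and DMSO libraries correlated at −0.08 in nsRNA and 0.03 in total RNA, and those of nsRNA and total RNA of one culture, which the protocol takes from one extract, at 0.08 after auxin and 0.01 after DMSO.

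The members, the lists of other genes and the tests were chosen with earlier results of these data known. Values in every library were given for the most abundant member per kb of each complex, the 3 lowest and 3 highest changes in each comparison, members not past a test and COX5A with COX5B; ATP15 and the raw counts of CYT1 were added after their values were seen. Promoter and protein sequences were not used here.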

Additional observations from a re-analysis of the deposited data

Results flagged for a closer look

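The change in nsRNA and the change in total RNA differed for 36 of 38 members on the deposited scaling (edgeR quasi-likelihood test of the difference, Benjamini-Hochberg adjusted p under 0.05), against 77.6% of all tested genes that were lower in this difference. The log2 change in nsRNA minus that in total RNA is given for each, and every one of the 36 is below 0 on this scaling. By TMM 19 members were lower and 3 higher, against 22.5% and 29.3% of all tested genes. For cytochrome oxidase the differences were YGL191W −3.36, YLR038C −2.74, YDL067C −2.54, YGL187C −2.33, YHR051W −2.23, YLR395C −2.21, COX5B −2.04, COX5A −1.92 and YMR256C −1.66. For the ATP synthase they were YDL004W −3.46, YBR039W −3.28, YBL099W −3.22, YJR121W −2.98, ATP4 −2.92, YDR377W −2.88, YML081C-A −2.39, YKL016C −2.19, ATP5 −2.07, TIM11 −2.06, YOL077W-A −2.03, YPR020W −1.74 and ATP15 −1.39. For the bc1 complex they were CYT1 −3.16, COR1 −3.07, QCR7 −2.90, YHR001W-A −2.71, QCR2 −2.67, QCR6 −2.56, QCR8 −2.32, RIP1 −1.87 and QCR9 −1.58. For cytochrome c the difference was CYC1 −1.77. For succinate dehydrogenase they were SDH4 −2.56, SDH3 −2.26, SDH1 −2.13 and SDH2 −1.07. The auxin nsRNA libraries hold fewer counts than the other libraries, 1291241 and 1753672, and the part of depth in these differences was not tested.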

How the results depend on the processing

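The scaling changed the direction of 9 of 38 members in nsRNA, 21 in total RNA and 8 in the difference with TMM, and of 10, 25 and 8 with DESeq2's own factors. TMM and DESeq2 with its own factors both place the typical gene near no change: TMM moved the median of all genes by 4.01 log2 units in nsRNA, 2.15 in total RNA and 1.89 in the difference, and DESeq2 by 4.06, 2.32 and 1.77. With TMM the members lower and higher were 16 and 1 in nsRNA (median −0.29), 10 and 15 in total RNA (median 0.12) and 19 and 3 in the difference (median −0.42). The shares of all tested genes were 29.5% and 27.4%, 42.0% and 33.4%, and 22.5% and 29.3%. With DESeq2's own factors the members lower and higher were 7 and 2 in nsRNA (median −0.21), 4 and 17 in total RNA (median 0.33) and 20 and 3 in the difference (median −0.52). The shares of all tested genes were then 15.9% and 23.8%, 25.0% and 33.4%, and 23.2% and 20.8%. Members whose log2 change was then above 0 were, with TMM in nsRNA, COX5B 0.55, ATP5 0.22, YHR051W 0.21, YJR121W 0.21, QCR2 0.065, ATP15 0.063, YMR256C 0.057, YBL099W 0.0495 and YLR295C 0.012; with DESeq2's own factors in nsRNA, COX5B 0.62, ATP5 0.31, YJR121W 0.28, YHR051W 0.28, ATP15 0.15, YMR256C 0.14, QCR2 0.14, YBL099W 0.12, YLR295C 0.086 and YOL077W-A 0.078. In total RNA they were, with TMM, YBL099W 1.41, YJR121W 1.34, YGL191W 1.33, YBR039W 1.32, YDL004W 1.21, COR1 0.98, ATP4 0.93, QCR2 0.88, COX5B 0.73, YDL067C 0.62, YDR377W 0.62, YLR038C 0.59, YHR051W 0.57, QCR7 0.54, CYT1 0.46, ATP5 0.41, YOL077W-A 0.18, QCR8 0.17, YLR395C 0.15, YML081C-A 0.10 and SDH4 0.0901. With DESeq2's own factors in total RNA they were YBL099W 1.61, YJR121W 1.54, YGL191W 1.53, YBR039W 1.52, YDL004W 1.41, COR1 1.18, ATP4 1.13, QCR2 1.08, COX5B 0.93, YDL067C 0.83, YDR377W 0.81, YLR038C 0.78, YHR051W 0.77, QCR7 0.74, CYT1 0.67, ATP5 0.61, YOL077W-A 0.39, QCR8 0.37, YLR395C 0.35, YML081C-A 0.31, SDH4 0.29, YKL016C 0.17, SDH3 0.13, SDH1 0.043 and YMR256C 0.035. In the difference they were, with TMM, YLR295C 1.81, NDI1 1.60, SDH2 0.81, ATP15 0.48, QCR9 0.29, YMR256C 0.22, YPR020W 0.12 and CYC1 0.1, and with DESeq2's own factors YLR295C 1.72, NDI1 1.503, SDH2 0.71, ATP15 0.39, QCR9 0.20, YMR256C 0.13, YPR020W 0.022 and CYC1 0.0014. These are rescalings of the same counts, and which factors measure RNA per cell was not tested.

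Leaving out each library in turn gave 38 members lower in nsRNA (median −4.43 to −4.10), 33 to 38 in total RNA (median −2.16 to −1.86) and 34 to 36 in the difference (median −2.52 to −2.12). In these fits the group left with 1 library is assumed to vary like the other. The calls lost in total RNA were those of YGL191W, YBL099W, YJR121W, YBR039W and YDL004W, and in the difference those of SDH2 and ATP15 (adjusted p of ATP15 0.0592 to 0.105 where lost); the cause was not tested. The difference of YLR295C lay between −0.41 and 0.42, above 0 at 0.10 without auxin nsRNA replicate 1. A replicate block on the shared numbers gave 38, 38 and 36 members lower (medians −4.28 in nsRNA and −2.29 in the difference), the block by culture 36 in the difference, and neither changed a member's call. DESeq2 with the deposited factors, no filter on low counts, a mean count of at least 50 and all 8 libraries in one fit changed no member's call either. The ratio of nsRNA to total RNA in DMSO had a member median of −1.02 from replicate 1 and −1.14 from replicate 2. Depth limits the total RNA values of YLR295C, ATP15, CYT1 and SDH4 most, which have under 30 raw counts in an auxin library. In nsRNA 6 members have under 30 raw counts in an auxin library, CYC1 and YHR001W-A among them.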
